A study of Mus musculus with 3 samples.

Results

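The genes described here are 41 mouse genes of programmed cell death: the Bcl2 family, the caspases, the Birc, Traf, Dff and Cide genes, and Fas with its adaptors. They were chosen by a rule on gene symbols, which was set with earlier results of these data known. The rule took the genes of the table whose probe sets carried exactly 1 symbol. That symbol began with Bcl2, Casp, Birc, Cide, Dff, Ripk or Traf, or matched a short list of further names (Bax, Bak1, Bad, Bid, Bik, Mcl1, Apaf1, Fas, Fadd, Tradd, Cradd and Trp53). The chosen genes make up 41 of the 8252 genes with a probe set of their own, and 61 of the 10855 probe sets with a single symbol. Bax, Trp53 and the Ripk genes were not analysed here.

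The samples were 3 pools of neural retina on 3 one-colour U74Av2 arrays, 1 pool per array and 3 to 4 mice per pool. All mice were Rp1-/-, with 129/SvEv and C57BL/6 mixed in their background, and retinas were taken at 21 days of age between 1 and 2 pm. Rp1 encodes a protein of the photoreceptor axoneme, and its loss in mice leads to a slow degeneration of photoreceptors. The series holds this 1 group, so every value describes knockout retina and its spread between pools, and no test between conditions could be made. Pool numbers are names without order, and the targeted gene itself was not analysed here.

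Cells that die by apoptosis follow 2 main routes. In the mitochondrial route, BH3-only proteins release Bak1 and its relative Bax from antiapoptotic Bcl2 proteins, cytochrome c leaves the mitochondrion, and Apaf1 assembles with it into the apoptosome that activates caspase-9. In the death receptor route, receptors of the TNF family such as Fas gather adaptors that activate caspase-8. Either route ends in executioner caspases, which are held back by proteins of the Birc family and which free a DNA-cutting nuclease from its inhibitor Dffa. In the rodent retina a wave of developmental apoptosis is largely over by the third postnatal week, and photoreceptor loss in inherited disease involves caspase-dependent and caspase-independent death.

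Values are linear signals, scaled so that the arrays share a trimmed mean, and are given for pools 1, 2 and 3 in that order. A signal counted as above background where it exceeded the 95th percentile of 19 probe sets for transcripts of bacteria and yeast that serve as controls, a limit of 160.3, 80.7 and 107.1 in pools 1, 2 and 3. Probe sets differ in how they respond, so signals of different genes are not ranked. The labelled tissue was borne out by its markers, with 12 of 12 measured rod genes and 11 of 12 inner retinal neuron genes above background on all 3 arrays. So were 8 of 8 lens genes, 5 of them crystallins, and the summed signals of these lens genes were 129765, 190000 and 134304. RNA quality controls were alike, with Actb 3′ to 5′ signal ratios of 1.31, 1.5 and 1.47 and Gapdh ratios of 0.898, 0.929 and 0.845. In these bulk samples, fewer cells of a type and less RNA per cell cannot be told apart.

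Of the 41 apoptosis genes, 20 (48.8%) exceeded the limit on every array, against 60.7% of all 8252 genes. A further 11 were above it on 1 or 2 arrays, and 10 (24.4%) on none, against 15.7% of all genes. By role, all 5 antiapoptotic Bcl2 genes and both apoptosome genes were above background throughout, as were 4 of 7 Traf genes, 2 of 4 Birc genes and 2 of 3 initiator caspases and partners. The same held for 1 of 4 BH3-only genes, 1 of 4 genes of the Fas and adaptor group, 1 of 5 Dff and Cide genes and 0 of 4 inflammatory and epidermal caspases. Further probe sets of Bad and Cradd, given below, were above background throughout and would make the BH3-only and the Fas and adaptor groups 2 of 4 each. Differences between the roles were not tested. The highest pool lay at least 1 log2 unit above the lowest, called a wide range here, in 7 of the 20 genes above background on all arrays (35%), against 28.3% of all such genes. The difference turned round without pool 1, with 1 of 27 genes (3.7%) against 5.66%, and when the probe sets of a gene were averaged, with 4 of 22 (18.2%) against 26.1%.

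**Figure D1:**
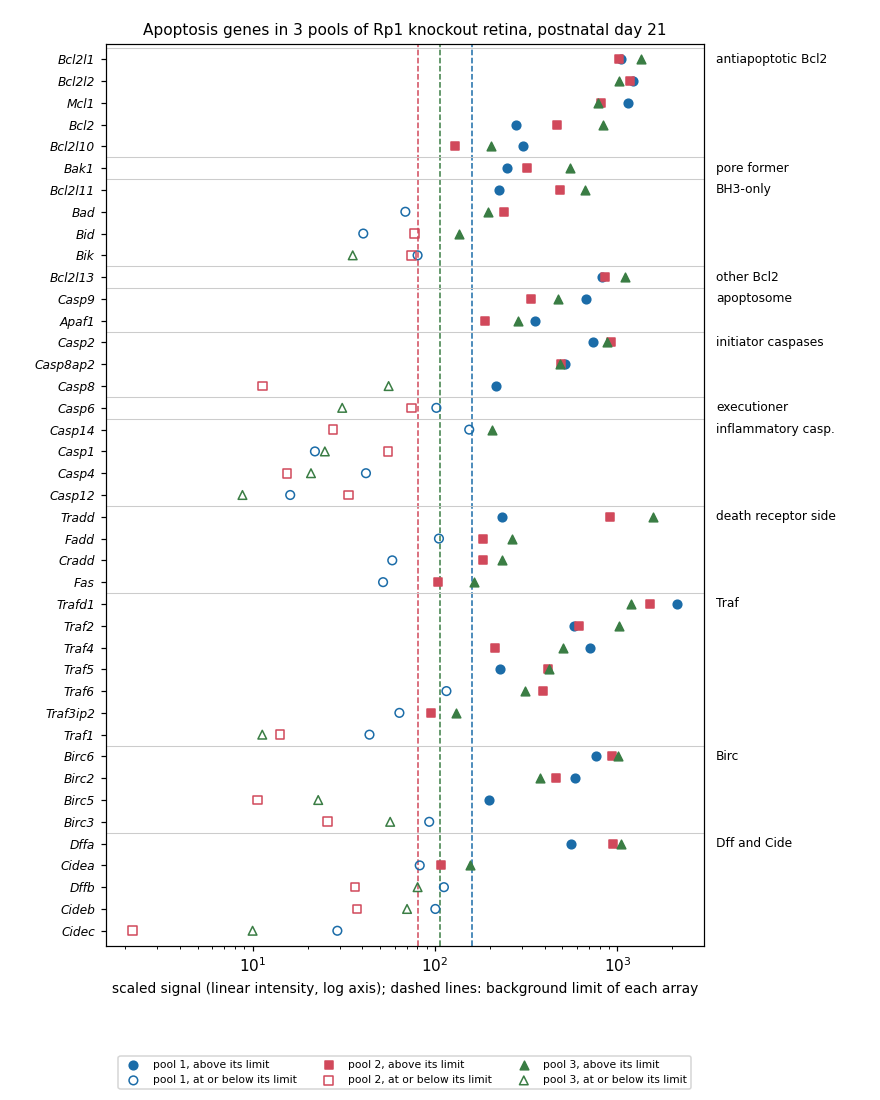
Scaled signal (log axis) of each of the 41 apoptosis genes in the 3 pools, grouped by role, with filled symbols above and open symbols at or below the background limit of that array (dashed lines). The 5 antiapoptotic Bcl2 genes lie above the limits in every pool, while Casp1, Casp4, Casp12 and Casp6 lie below them in every pool.

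The antiapoptotic Bcl2 genes, whose products hold the pore formers in check, were above background in every pool. Bcl2l2, which encodes Bcl-w, had signals of 1213, 1168 and 1017 in the 3 pools. Bcl2l1, the gene of Bcl-xL, had 1046, 1014 and 1350. Their log2 ranges were 0.25 and 0.41, and 0.41 and 0.61 under scaling to a common median. Mcl1, which encodes a short-lived relative, had 1149, 816 and 785. In this scaling pool 1 lay above the other pools, which were close to each other. Leaving out pool 1 reduced the log2 range of Mcl1 to 0.06, against 0.55 in all 3 pools. Under scaling to a common median its range over the 3 pools was 0.31.

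Bcl2 itself, the founding member of the family, had 279, 466 and 838, with the pools well apart and pool 3 highest (log2 range 1.59). This order belonged to a single probe set. A further Bcl2 probe set gave 505, 302 and 356, highest in pool 1, and another gave 122, 95.7 and 34.4, above the limit in pool 2 alone. Averaged over its 3 probe sets, Bcl2 had a log2 range of 0.51. Bcl2l10, a divergent relative, had 306, 129 and 203 at its main probe set (log2 range 1.25) and 196, 114 and 342 at another. Pool 2 was lowest at both, and the highest pool differed. At both, the signal in pool 2 was above the limit of pool 2 but under that of pool 1.

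Bcl2l1 also had a further probe set at 225, 20.0 and 45, which was above the limit in pool 1 only. Bcl2l13, which encodes a Bcl2-like protein of the outer mitochondrial membrane, averaged 925 ± 148 (SD, n = 3).

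Among the genes that promote permeabilisation of the mitochondrion, Bak1, a pore former, had 247, 319 and 547 and a log2 range of 1.15. Pool 3 stood apart, and without it the range was 0.37. Bok, a pore-forming relative outside the 41 genes, was likewise above background throughout, with 572, 316 and 664, but its lowest pool was pool 2.

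BH3-only genes, the sensors that start the mitochondrial route, differed in detection. Bcl2l11, which encodes Bim, was above background in every pool with 225, 484 and 662 (log2 range 1.56), lowest in pool 1. Its further probe sets disagreed, with 646, 238 and 375 at one and values of 15.9, 33.0 and 8.0, below every limit, at another. The log2 range of Bcl2l11 was 0.47 when its probe sets were averaged and 0.45 without pool 1. Bad, a BH3-only protein controlled by survival signals, had 68.8, 240 and 196, below the limit in pool 1, so that pool 2 was at least 1.49-fold above pool 1. Its other probe set ran the opposite way at 734, 322 and 673, above background on all arrays.

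Bid, which links caspase-8 to the mitochondrion, averaged 84.2 ± 47.7 and was above the limit in pool 3 only. Bik, at 63.4 ± 24.4, was above it in no pool. Of 2 further BH3-type genes, Bnip3, a mitochondrial protein induced by hypoxia, had 710, 995 and 971, and the neuronal Hrk had 36.8, 5.91 and 29.4, below every limit.

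The apoptosome genes were detected on all arrays and shared an order of the pools at their main probe sets. Apaf1, the scaffold of the apoptosome, had 355, 188 and 286. Casp9, the caspase it activates, had 676, 337 and 471, a log2 range of 1.00. Pool 1 was highest and pool 2 lowest for both genes. For Casp9, 3 other probe sets gave 452, 314 and 459, then 172, 253 and 139, and then 737, 376 and 282. Its highest pool was thus pool 1 at 2 of 4 probe sets, pool 3 at 1 and pool 2 at 1. The log2 range of Casp9 was 0.55 under scaling to a common median and 0.48 without pool 1.

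Of the 5 genes of mitochondrial release factors outside the 41, 4 were above background on all arrays. Cycs, which encodes cytochrome c, had 906, 762 and 434. Htra2, a mitochondrial protease, had 609, 324 and 260, and Aifm1, the apoptosis-inducing factor, had 1474, 864 and 923. Endog, a mitochondrial nuclease named after its values were seen, had 656, 205 and 254. Diablo, an antagonist of Birc proteins, had 129, 14.3 and 104, below every limit. All 6 detected genes of this list of 7 were highest in pool 1, as were 42.6% of all genes above background on all arrays, and without Endog it was 5 of 5. Under scaling to a common median it was 5 of 6, against 23.8% of all genes, since Cycs was then at 778, 895 and 441. The list was drawn up with earlier results of these data known, and Casp9 was counted by its main probe set alone.

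On the receptor side, Tradd, the adaptor of the TNF receptor, had 232, 909 and 1562, the widest log2 range of the 20 genes detected throughout (2.75). The 3 pools were far apart, pool 1 lowest and pool 3 highest. Tradd was read by a single probe set, of a class whose probes were selected under relaxed rules (suffix r). Its log2 range was 2.99 with a common median and 0.78 without pool 1. Fadd, which joins Fas to caspase-8, had 105, 183 and 264. Cradd, the adaptor between caspase-2 and its activating platform, had 58.3, 183 and 232. Both were below the limit in pool 1 and above it in the other pools, which puts pool 3 at least 1.64-fold above pool 1 for Fadd and at least 1.45-fold for Cradd. A second Cradd probe set gave 428, 221 and 313, above background everywhere and highest in pool 1.

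Fas was read by a probe set of the array's control series at 51.9, 104 and 164, above the limits in pools 2 and 3, where it exceeded them by little. The other Fas probe set gave 90.1, 6.91 and 6.40, below every limit. Of the receptors and ligands outside the 41 genes, none of 6 was above background on all arrays. Tnfrsf1a, the main TNF receptor, had 71.4, 295 and 295, Tnfrsf1b had 148, 140 and 170, and Tnfrsf21, the death receptor DR6, had 34.3, 165 and 250. Fasl, the ligand of Fas, had 29.8, 14.1 and 36.6, below every limit. Tnf, named after its values were seen, had 104, 35.8 and 36, also below every limit. Cflar, the caspase-8 inhibitor c-FLIP, was above background throughout with 359, 198 and 154, highest in pool 1.

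**Figure D2:**
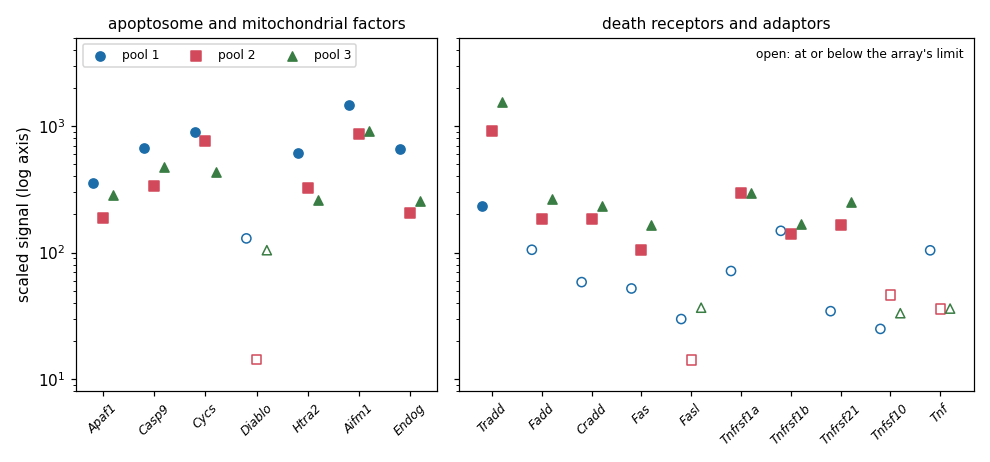
Scaled signal (log axis) per pool of the apoptosome and mitochondrial factors (left) and of the death receptors, ligands and adaptors (right), with open symbols at or below the background limit of the array. The 6 detected genes on the left have their highest symbol in pool 1. Tradd, Fadd, Cradd, Fas, Tnfrsf1a, Tnfrsf21 and Tnfsf10 have their lowest there. Fasl, Tnf and Tnfrsf1b have their lowest in pool 2, and Tnf has its highest in pool 1. Each gene is shown by 1 probe set, and other probe sets of Casp9, Cradd and Fas gave other orders of the pools.

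Across these 10 receptor-side genes, 6 were above background on 2 arrays, and for all 6 pool 1 was the array below the limit. Tnfrsf1b, among the 6, nevertheless had its lowest signal in pool 2, at 140 against 148 in pool 1. Casp8, with 216, 11.3 and 55.7, and Cflar belong to the same route but were not among the 10. Both were highest in pool 1. Fadd, Cradd and Fas are also among the 7 of the 41 apoptosis genes that were above background on exactly 2 arrays. All 7 were below the limit in pool 1. This was so for 68.6% of all genes detected on 2 arrays, and the limit of pool 1 was the highest of the 3. Marker genes of other cell types differed between the pools too. The summed signal of 6 pigment cell genes was 2031, 12917 and 8368, with Tyrp1, Tyr and Rdh5 below the limit in pool 1, and that of 9 stromal genes was 2338, 3884 and 4929. That of 4 red blood cell genes was 5490, 31716 and 8254, and that of 6 lymphocyte genes was 2136, 740 and 583. Their part in the order of the receptor-side genes was not tested.

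The caspases are given by class. Casp2, an initiator caspase, had 733, 927 and 875 at its main probe set, a log2 range of 0.34 that became 0.79 under scaling to a common median. At a second probe set Casp2 had 83.0, 210 and 261 and was below the limit in pool 1. Casp8ap2, a caspase-8-associated protein that also serves histone mRNA processing, had 517, 492 and 486, the narrowest log2 range of the 20 genes in this scaling (0.09). Under scaling to a common median its range was 0.38 and that of Mcl1, 0.31, was narrower. Its other probe set was below every limit at 29.4, 7.51 and 92.3. Casp8, the initiator caspase of the death receptor route, averaged 94.3 ± 108 and was above the limit in pool 1 alone. Casp6, an executioner caspase, was above it in no pool, at 69.1 ± 35.7.

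The inflammatory caspases process cytokines or act in pyroptosis rather than in apoptosis. Casp1, which matures interleukin-1β, averaged 34.0 ± 18.4, Casp4 averaged 26.1 ± 13.9 and Casp12 averaged 19.5 ± 12.8. All 3 were below the limit in every pool. Casp14, a caspase of the differentiating epidermis, averaged 129 ± 92.0 and was above the limit in pool 3 only. Microglia and other immune cells are a usual source of inflammatory caspases. Of 14 marker genes of these cells, 6 were above background on all arrays, namely C1qa, C1qc, Csf1r, Tyrobp, Laptm5 and Cx3cr1. A further 5, namely Ptprc, Itgam, Fcer1g, Cd53 and Lyz2, were above it on none. The summed signals of the 14 genes were 3049, 2921 and 3491.

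Casp1, Casp4 and Casp12 are neighbours on mouse chromosome 9. Their start regions were compared with those of detected genes in the RefSeq promoter table (GRCm38.p6), which held 36 of the 41 genes. The window was the 250 bases before the first start listed for each gene, and 2 short motifs were searched on both strands, the GC box GGGCGG and the TATA motif TATAAA. The sequences below run 5′ to 3′ on the strand of the gene, with GC boxes on either strand (GGGCGG or CCGCCC) in capitals. Bcl2, Casp9 and Mcl1 stand for genes above background throughout, and Casp1 and Casp12 for genes below it in every pool.
Bcl2 (chr1:106714291-106714540, minus strand): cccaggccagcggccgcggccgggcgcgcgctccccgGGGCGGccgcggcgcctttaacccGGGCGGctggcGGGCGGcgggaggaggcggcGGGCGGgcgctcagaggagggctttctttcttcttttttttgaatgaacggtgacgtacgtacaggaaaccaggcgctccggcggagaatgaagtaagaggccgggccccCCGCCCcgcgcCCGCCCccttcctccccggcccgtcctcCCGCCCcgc
Casp9 (chr4:141793362-141793611, plus strand): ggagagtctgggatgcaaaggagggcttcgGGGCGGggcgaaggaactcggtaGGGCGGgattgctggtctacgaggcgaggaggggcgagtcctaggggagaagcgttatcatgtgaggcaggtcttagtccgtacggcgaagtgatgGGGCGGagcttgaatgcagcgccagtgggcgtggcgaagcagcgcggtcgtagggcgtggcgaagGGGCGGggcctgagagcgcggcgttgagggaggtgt
Mcl1 (chr3:95658471-95658720, plus strand): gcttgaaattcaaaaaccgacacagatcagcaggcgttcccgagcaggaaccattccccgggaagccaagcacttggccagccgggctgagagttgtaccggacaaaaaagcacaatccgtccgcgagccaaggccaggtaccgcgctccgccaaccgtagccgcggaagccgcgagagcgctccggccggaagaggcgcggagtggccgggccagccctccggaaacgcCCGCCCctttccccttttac
Casp1 (chr9:5298267-5298516, plus strand): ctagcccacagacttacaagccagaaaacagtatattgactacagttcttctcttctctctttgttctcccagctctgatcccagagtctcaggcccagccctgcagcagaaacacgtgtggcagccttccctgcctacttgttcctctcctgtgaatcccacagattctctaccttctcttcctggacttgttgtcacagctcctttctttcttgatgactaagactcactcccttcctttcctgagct
Casp12 (chr9:5345226-5345475, plus strand): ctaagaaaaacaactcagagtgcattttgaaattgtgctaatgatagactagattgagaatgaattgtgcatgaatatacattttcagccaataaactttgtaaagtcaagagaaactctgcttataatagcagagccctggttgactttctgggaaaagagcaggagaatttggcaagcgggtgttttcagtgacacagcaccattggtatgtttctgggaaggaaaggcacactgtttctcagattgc

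The upstream window of Bcl2 held 7 GC boxes and 36 CpG dinucleotides, that of Casp9 held 4 and 25, and that of Mcl1 held 1 and 26. The windows of Casp1 and Casp12 held no GC box and 1 CpG each, and that of Casp4 held none and 3. A GC box was present in 13 of 18 apoptosis genes above background on all arrays (72.2%), in 6 of 9 detected on 1 or 2 arrays and in 3 of 9 detected on none (33.3%). Among all genes of the array with a listed promoter, the share was 61.4% of the 4044 above background on all arrays and 37.4% of the 1004 above it on none, so the apoptosis genes followed the same direction as genes at large. The motif was in 32.9% of all 27025 promoters of the table. The median CpG count was 19.5 in the apoptosis genes detected throughout and 4 in those detected nowhere, against 17 and 6 over all genes of the array.

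Exceptions ran both ways. Bcl2l1, detected throughout, had no GC box and no CpG in the window before its first listed start, although 3 starts are listed for it. Dffb, below every limit, had 2 GC boxes and 26 CpG dinucleotides. TATAAA was found in none of the 18 promoters of apoptosis genes detected throughout and in 2 of 36 in all (5.56%), those of Cradd and Cideb, against 9.34% of the array's genes. A match describes the letters of a window and does not mark a site in use.

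The Birc genes encode inhibitors of apoptosis. Birc6, a large ubiquitin-conjugating member, had 765, 933 and 1006 (log2 range 0.39, and 0.74 under scaling to a common median), with pool 1 lowest. Birc2, the gene of cIAP1, had 585, 464 and 379 at its main probe set, with the opposite order of the pools, and 97.8, 149 and 257 at a second, below the limit in pool 1. Birc3, its neighbour on chromosome 9 and the gene of cIAP2, averaged 58.5 ± 33.6 and was above the limit in no pool. Xiap, the direct caspase inhibitor, had 253, 213 and 149 and was above background throughout.

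Birc5 encodes survivin, which serves in cell division as well as in survival. It averaged 77.1 ± 105 and was above the limit in pool 1 only, where its signal was 1.23 times the limit of that array. Of 8 proliferation genes, 3 were above background on all arrays, and their summed signals were 2282, 2358 and 2589. Mki67, with 246, 7.31 and 7.50, was the only gene of this list above the limit in pool 1 alone. Mcm2 went the other way with 109, 170 and 293, below the limit in pool 1 only. Top2a, Cdk1 and Aurka were below every limit. Mki67 was named after its values were seen, and its relation to Birc5 was not tested.

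Traf adaptors carry signals from TNF receptors and Toll-like receptors to NF-κB and kinase cascades, mostly towards survival. Traf2, which recruits cIAP proteins to the TNF receptor, had 580, 613 and 1026. Pool 3 stood apart from the other pools, which were alike. Traf5 had 227, 419 and 420, with pool 1 apart. Traf4, a family member with roles in development, had 705, 213 and 504, a log2 range of 1.72, and the lowest value was in pool 2. A second Traf4 probe set gave 426, 63.7 and 118, also highest in pool 1 and below the limit in pool 2.

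Traf6, the adaptor of Toll-like and interleukin-1 receptors, had 116, 389 and 310, and pool 2 was at least 2.43-fold above pool 1, which was below the limit. Another Traf6 probe set at 86.9, 172 and 217 was also below the limit in pool 1 alone, and another at 74.4, 40.9 and 120 was above it in pool 3 only. Traf3ip2, an adaptor of the interleukin-17 receptor, averaged 96.2 ± 33.1 and was above the limits in pools 2 and 3. Traf1 averaged 23.1 ± 18.0 and was above the limit in no pool. Trafd1, a regulator of innate immune signalling, averaged 1602 ± 475 and was highest in pool 1, while its second probe set, at 336, 580 and 730, was lowest there.

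Of the genes for the end stage of apoptosis, Dffa, inhibitor and chaperone of the caspase-activated nuclease, had 556, 951 and 1051, lowest in pool 1. Its other probe set had 608, 493 and 390, with the order of the pools turned round. Dffb, the nuclease itself, averaged 76.2 ± 38.0 and was above the limit in no pool. The Cide genes, relatives of the Dff genes that act mainly in lipid storage, were near or below background. Cidea averaged 115 ± 36.8 and was above the limits in pools 2 and 3, whereas Cideb at 69.4 ± 31.6 and Cidec at 13.8 ± 13.9 were above them in no pool.

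The agreement between probe sets was examined for the 15 apoptosis genes that had more than 1. All probe sets of a gene were above background on the same number of arrays in 4 of 15 genes (26.7%), against 39.1% of the 2076 genes of the array with several probe sets. In Bcl2l10, Casp9, Dffa and Trafd1 every probe set was above background on all arrays. In 0 of these 4 genes did the probe sets have the same highest pool, against 204 of 634 such genes over the array (32.2%). Counting a gene as detected where any of its probe sets was above background on all arrays brought in Bad and Cradd and gave 22 of 41 genes (53.7%), against 62.8% of all genes.

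**Figure D3:**
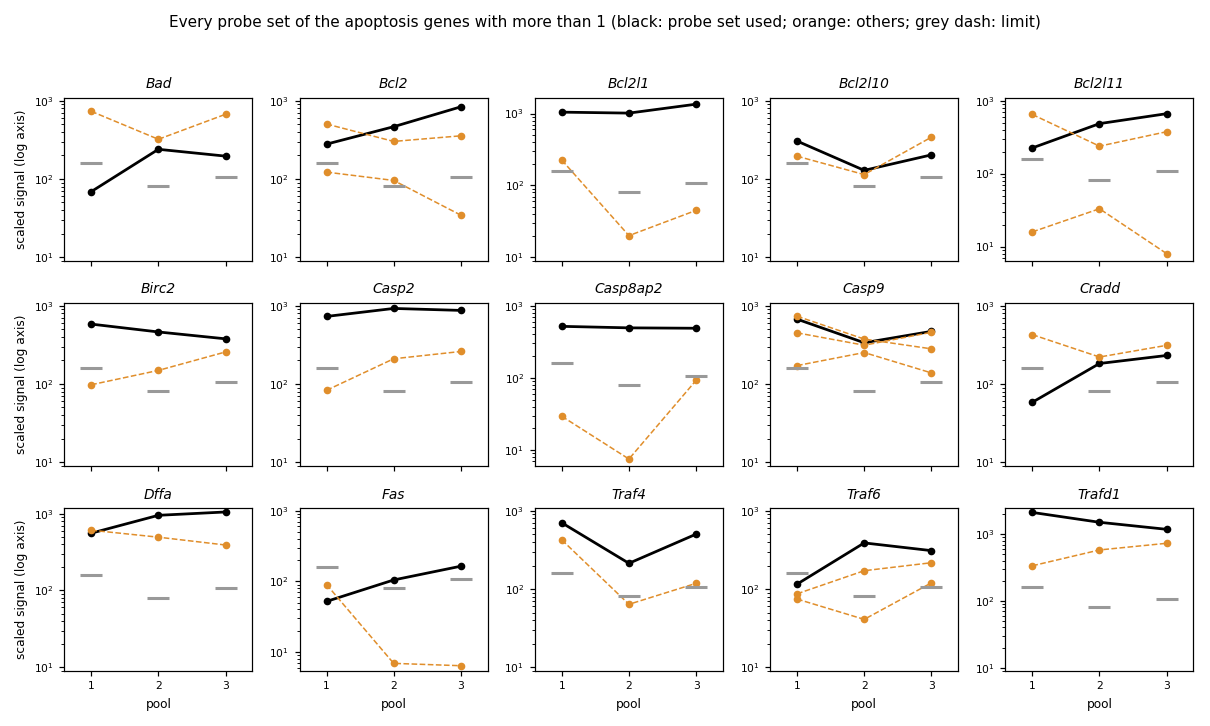
Scaled signal (log axis) in pools 1 to 3 of every probe set of the 15 apoptosis genes with more than 1, with the probe set used in black, the others in orange and the background limit of each array as a grey dash. Lines join the values of a probe set and imply no order of the pools. In every gene shown except Traf4 the probe sets differ in which pool is highest, counting probe sets below background too.

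The 20 genes above background on all arrays had a median log2 SD of 0.46 between pools, against 0.36 for all 5008 such genes. It was 0.28, against 0.35 for all genes, when the probe sets of each gene were averaged, and 0.29, against 0.24, without pool 1. Under scaling to a common median it was 0.40, against 0.42, and without pool 3 it was 0.35, against 0.37, so that the apoptosis genes were then the less variable. Pool 3 had the highest signal for 10 of the 20 genes (50%), against 24.4% of all genes, and pool 2 for 1 of 20 (5%), against 33.0%. Pool 1 was highest for 9 (45%), against 42.6% of all genes, and lowest for 10 (50%), against 36%. The median deviation of the 20 genes in pool 3 from the mean of the other pools was 0.31 on the log2 scale, against -0.04 for all genes. In pool 1 it was -0.19, against 0.06, and in pool 2 it was -0.06, against -0.01.

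Scaling to a common median, which moved the median log2 signal by -0.22 in pool 1, 0.23 in pool 2 and 0.02 in pool 3, gave pool 3 the highest signal in 7 of 20 genes (35%), against 21% of all genes. Quantile normalization gave 9 of 20 (45%), against 26.6%. Pool 2 was then highest in 7 of 20 genes (35%) with a common median, against 55.2%, and in 3 of 20 (15%) with quantile normalization, against 34.3%.

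**Figure D4:**
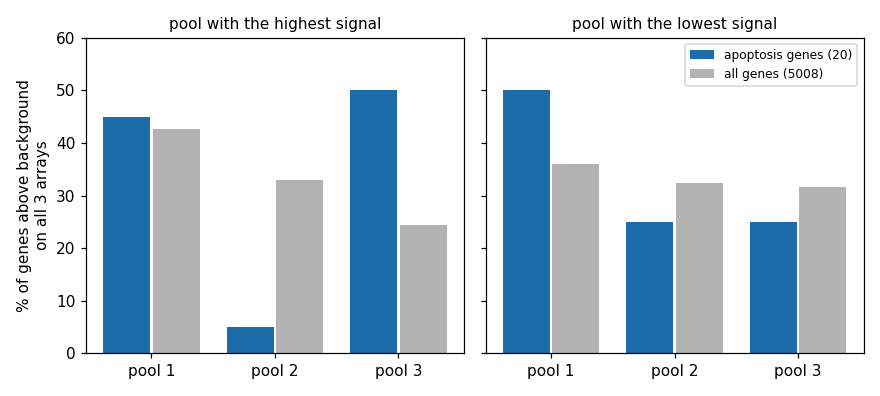
Share of genes whose highest (left) or lowest (right) signal fell in each pool, for the 20 apoptosis genes above background on all 3 arrays (blue) and all 5008 such genes (grey). Pool 3 was highest for 50% of the apoptosis genes and 24.4% of all genes, and pool 2 for 5% and 33.0%.

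Of 29 pathway genes outside the 41, 18 were above background on all arrays and 5 on none, against 60.7% and 15.7% of all genes. Of the 18, 11 were highest in pool 1, against 42.6% of all genes above background on all arrays. These 11 include Cycs, Htra2, Aifm1 and Endog, given above. Of 5 measured textbook targets of p53, 4 were above background throughout, and Perp, named after its values were seen, was below the limit in pool 3 with 184, 166 and 76.1. Mdm2, the ubiquitin ligase of p53, had 1080, 570 and 728, and Cdkn1a, the cell cycle inhibitor p21, had 572, 305 and 457. Gadd45a, a stress response gene, had 758, 761 and 684, and Ccng1 had 452, 544 and 500. Mdm2 and Cdkn1a were highest in pool 1 and lowest in pool 2, and the log2 ranges of Gadd45a and Ccng1 were 0.15 and 0.27.

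Of 9 genes of caspase-independent death and caspase substrates, 7 were above background on all arrays. Parp1, a DNA damage sensor that caspases cleave, had 191, 247 and 278. Capn2, the large subunit of a calcium-activated protease, had 394, 220 and 224. Capn1, that of a related protease, had 122, 252 and 141, and Cast, the calpain inhibitor calpastatin, had 25.5, 138 and 146. The last 2 genes were below the limit in pool 1 only.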

How the data were processed

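Transcript signals of 3 pools of Rp1 knockout retina were analysed as deposited: the authors' table holds linear intensities, 1 for each probe set on each array, with no missing values. The software, background correction and scaling behind these intensities are not given in the sources used here. Each array was multiplied by a factor (0.998 to 1.00) that equalised its 2% trimmed mean, taken over 12422 probe sets with controls left out. Before log2 transformation, signals under the 5th percentile of their array were raised to that percentile. Symbols came from the platform annotation. A gene was read by its probe set with a plain suffix, then by the highest mean, and control-series probe sets with 1 symbol were kept. Promoter sequences are from RefSeq.

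Members, lists and limits were chosen with earlier results of these data known. Signals per pool are given for members detected throughout with a log2 range of 1 or more, for the first 4 detected members of each role list, for members detected on 1 or 2 arrays with a signal at least 2 times the limit, and for disagreeing probe sets. A bound ("at least") sets a pool against the limit of the pool below background. The range computation was tested on simulated data. No test between groups was possible with 1 group, and precision is limited by having 3 arrays. Python 3.11.15, numpy 2.4.6 and pandas 2.3.3 were used.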

Additional observations from a re-analysis of the deposited data

Results flagged for a closer look

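A signal lay outside the genes described above, in a probe set that the annotation assigns to 5 symbols. The probe set shared by Mthfs and the Bcl2 relatives Bcl2a1a, Bcl2a1b, Bcl2a1c and Bcl2a1d, near-identical copies in the mouse, had a mean signal of 311 ± 94.9 (SD, n = 3) and was above background on all 3 arrays, with 288, 229 and 415 in pools 1, 2 and 3. The other 2 probe sets for Bcl2a1 copies averaged 17.4 ± 20.9, above the limit on no array, and 71.5 ± 11.6, above it on 1 array.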

How the results depend on the processing

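The count of 20 genes above background on all 3 arrays became 33 with the median control as limit (7084 of all genes) and lay between 17 and 22 in the other settings with 3 pools and between 20 and 27 with a pool left out. The count of 7 genes with a log2 range of 1 or more became 19 of 33 with that limit (57.6%, against 42.9% of all genes), 4 of 22 when the probe sets of a gene were averaged (18.2%, against 26.1%), 14 at a threshold of 0.5 (69.6% of all genes) and 4 at 1.5 (9.80%). It lay between 1 and 5 with a pool left out, with 1 of 27 without pool 1 (3.7%, against 5.66%), 4 of 20 without pool 2 (20%, against 17.8%) and 5 of 20 without pool 3 (25%, against 21.8%). The median log2 SD of 0.46 was 0.28 when probe sets were averaged and between 0.29 and 0.40 with a pool left out. The median deviation in pool 1 turned to 0.0783 with the highest control as limit and to 0.0372 when probe sets were averaged, and lay between -0.31 and -0.00047 with a pool left out. That in pool 2 turned to 0.27 with a common median and to 0.0556 after quantile normalization, and lay between -0.41 and 0.00047 with a pool left out. That in pool 3 kept its sign. It was 0.15 with the highest control as limit, 0.27 when probe sets were averaged and between 0.31 and 0.41 with a pool left out. Leaving the control series out, a setting chosen after seeing the data, changed none of these 6 results by more than rounding. Of the log2 ranges of single genes under all alternatives, 267 moved by less than the SD and 33 by more. The 267 include settings that could not move a range: other limits, no floor for low signals, and the control series left out. A gene with 1 probe set could not move either when probe sets were chosen by mean or averaged. The tally is therefore no measure of robustness. The causes were not tested. No paired analysis was possible because there is 1 group.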
